A study of Rattus norvegicus with 8 samples.

Results

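The 4 arrays described here set RNA of purified retinal ganglion cells (RGCs) from normotensive control eyes against a common rat reference RNA, and they are 4 of the 8 arrays of a study of chronic ocular hypertension in rats. They were chosen by their titles, control RGCs 1 to 4. The other 4 arrays, of RGCs from hypertensive eyes, were not used. Each array is a 2-colour Agilent rat oligonucleotide array. The Cy5 channel held RGC RNA and the Cy3 channel held a commercial universal rat reference RNA, both amplified in 2 rounds. Each control sample is a pool of purified RGCs from the normotensive eyes of 1 of 4 independent groups of animals, whose other eyes had the raised pressure. How many animals a pool holds, and their strain and age, the sources used here do not give. No other treatment or allele is named in the labels.

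RGCs are the output neurons of the retina. They collect signals from bipolar and amacrine cells through glutamate, GABA and glycine receptors, and their axons form the optic nerve. They are a small share of the cells of the retina and have left the cell cycle. A universal reference RNA, made from cells, gives every array the same second channel, so that a ratio says how a transcript stands in the sample relative to that mixture. It gives no absolute abundance, and ratios of different genes do not rank their levels. In RNA from a whole purified sample, fewer cells of a type and less RNA per cell cannot be told apart.

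The deposited value of a spot is the log2 ratio of RGC over reference RNA, so that 1 is 2-fold above the reference and -1 is 2-fold below it. Of 45220 spots, 32101 to 38162 had a value on a control array, and 26284 had one on all 4. Averaging the spots of 1 gene symbol left 10791 named genes, tested together with 10345 probes without a gene name. Between arrays, the ratios correlated at 0.688 to 0.782 (Pearson's r for the 6 pairs of arrays, across 26261 spots, which are not independent replicates). The median SD of an item over the 4 arrays was 0.66 log2 units, and the median 95% confidence interval reached 0.77 to either side of the mean. Dyes were not swapped, so a dye effect is part of every ratio here, and the part it has in the results was not tested. Exact values shared by 3 or more spots of an array made up 50.9% to 59.5% of its values. Such sharing was read as low signal, and a spot is called distinct where this did not occur on any of the 4 arrays. The array of control 3 had a median of 0.125, against -0.007 to 0.001 for the other 3.

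In control RGC RNA, 1946 of 10791 named genes (18.0%) lay above the reference and 3583 (33.2%) lay below it, at an adjusted p under 0.05 (limma, Benjamini-Hochberg over all 21136 items, n = 4 arrays). By sign alone, 2536 named genes (23.5%) were above 0 on all 4 arrays and 4565 (42.3%) were below 0 on all 4. Over all 21136 items, named or not, 20.2% lay above and 30.8% below. Of the 5503 named genes with a distinct spot, 13.4% lay above and 33.9% below. The median of all named genes was -0.30. At 8-fold or more, 59 named genes (0.547%) lay above the reference and 234 (2.17%) below it among those that passed. In what follows, a gene is said to lie above or below the reference only where it passed this test, and means are given with the SD over the 4 arrays. The counts for a gene list are to be read against the 18.0% above and 33.2% below of all named genes. A list's measured members are those with a value on all 4 arrays, which the authors' quality criteria decided.

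**Figure D1:**
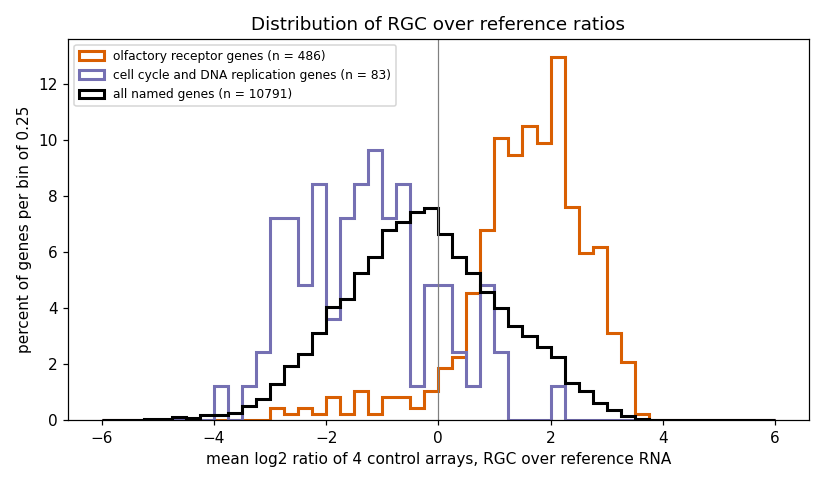
Histogram of the mean log2 ratio of RGC over reference RNA across the 4 control arrays, as percent of genes per bin, for olfactory receptor genes, for cell cycle and DNA replication genes and for all named genes. The olfactory receptor genes lie mostly to the right of 0 (median 1.70), the cell cycle and replication genes mostly to the left, and all 10791 named genes around a median of -0.30.

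Of the RGC markers, 24 of the 32 listed were measured, and 5 of them (20.8%) lay above the reference, 1 below it and 18 did not pass. The 5 were Atoh7, Gap43, Satb1, Elavl4 and Jam2, and the 1 below was Ebf1. Jam2, a junctional adhesion molecule, averaged 0.99 ± 0.47 over 3 spots that lay between -0.50 and 2.56 (adjusted p = 0.0263), and was named after its value was seen. The share above the reference is close to the 18.0% of all named genes. The list median was 0.28, with a range of -0.06 to 0.61 over the 4 arrays. It was 0.09 without control 1 and -0.01 over spots with distinct values. Of the 14 markers with a distinct spot, 2 lay above and 1 below.

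Gap43, which neurons make in growing axons, had log2 ratios of 2.49, 1.66, 1.28 and 1.46 on control arrays 1 to 4 (mean of 10 spots, 1.72 ± 0.53, adjusted p = 0.0046). Atoh7, the proneural transcription factor needed for RGC formation, had 1.31, 2.19, 2.26 and 1.36 (1.78 ± 0.52, adjusted p = 0.00403). Both genes were above the reference on every array. Elavl4, a neuronal RNA-binding protein, had 1.51, 1.13, 0.46 and 1.33 (1.11 ± 0.46, adjusted p = 0.0174), and Satb1, a chromatin organiser, had 2.06, 1.61, 0.36 and 2.46 (1.62 ± 0.91, adjusted p = 0.0139). Ebf1, a transcription factor, had -0.46, -1.38, -1.70 and -0.62 (-1.04 ± 0.60, adjusted p = 0.0293). Elavl4 and Satb1 did not pass without control 1 or control 4, Elavl4 and Ebf1 did not without control 2, and Ebf1 also did not without control 3 or control 4. With 3 arrays the test has fewer samples. Elavl4 also averaged 3 spots that lay between 0.20 and 2.33. Atoh7 and Satb1 had no distinct spot and only shared values on 3 arrays each, whereas Gap43 had a distinct spot.

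The markers most often used to define RGCs did not pass. Thy1, the surface antigen used for their immunopurification in rats, had 2.58, -1.09, 1.35 and 0.22 (0.77 ± 1.57, adjusted p = 0.296), and its 4 values cross 0. Rbpms, an RNA-binding protein restricted to RGCs in the retina, had 0.65, -0.39, -0.14 and 0.16 (0.07 ± 0.45, adjusted p = 0.844). Sncg, gamma-synuclein, was below 0 on every array, at -0.57, -0.18, -0.73 and -0.97 (-0.61 ± 0.33, adjusted p = 0.0875). The neurofilament genes did not pass either: Nefm averaged 0.71 ± 0.42 (adjusted p = 0.0684) and was above 0 on all 4 arrays, Nefl averaged 0.41 ± 0.89, and Nefh averaged -0.19 ± 1.02. Tubb3, a neuronal tubulin, averaged 0.38 ± 0.15, and Slc17a6, the vesicular glutamate transporter of RGCs, averaged 0.23 ± 0.24. Isl1, a transcription factor of RGCs and other retinal neurons, was at 0.25, 0.37 and 0.41 on controls 1, 2 and 4 and at -1.22 on control 3. Thy1, Nefl, Nefh and Isl1 had no distinct spot. Pou4f2, a POU-domain factor of RGCs, had no spot with a value on all 4 arrays, while the probe table names no spot for Pou4f1. The label of the samples rests on the purification named by the submitters. By the share above the reference, the RGC markers did not stand apart from all named genes (20.8% against 18.0%). A smaller share of them lay below it (4.17% against 33.2%), and their median was 0.28 against -0.30. Over genes with a distinct spot, the medians were -0.01 and -0.38. These differences were not tested.

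**Figure D2:**
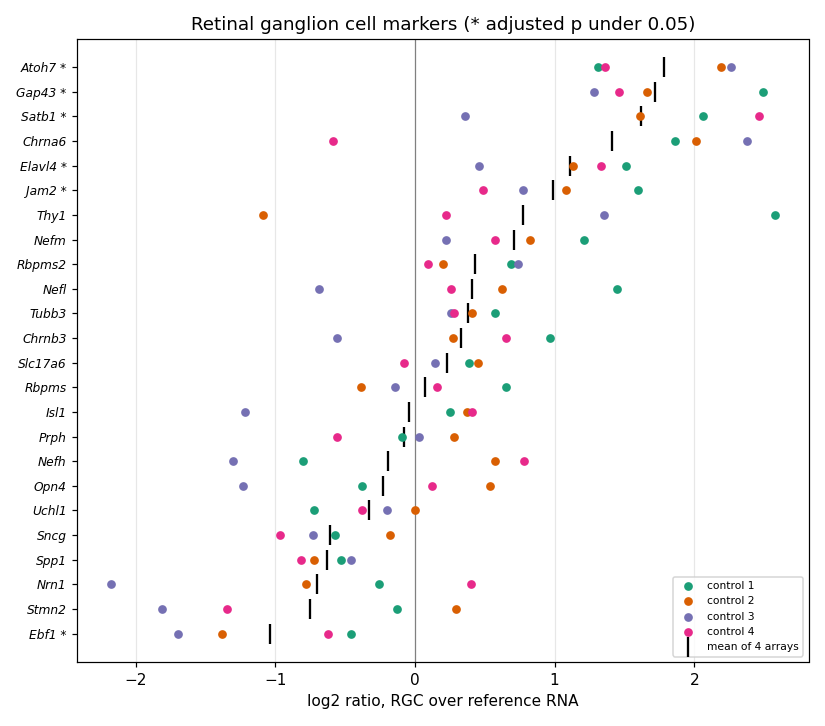
Log2 ratio of RGC over reference RNA for the 24 measured RGC markers, one row per gene, with a point for each control array and a bar at the mean of the 4 arrays. An asterisk marks the 5 genes above and the 1 gene below the reference at an adjusted p under 0.05, and the points of Thy1, Nefl and Nefh lie on both sides of 0.

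Genes of neurotransmission lay above the reference more often than below it. Of 17 measured glutamate receptor genes, 9 lay above and 0 below, with a list median of 1.11. Of 24 synaptic vesicle and release genes, 7 lay above and 0 below (median 0.60, or 0.35 without control 1). Of 19 GABA and glycine receptor genes, 9 lay above and 2 below, with a median of 0.73, of 1.05 without control 3 and of 0.41 over distinct spots.

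Grin2a, a subunit of the NMDA receptor, had ratios of 2.01, 1.67, 1.47 and 1.98 (1.78 ± 0.26 over 10 spots, adjusted p = 0.00272). The kainate receptor subunits Grik3 (1.87 ± 0.61) and Grik5 (1.73 ± 0.65) were also above 0 on all arrays. The obligatory NMDA subunit Grin1 averaged 0.19 ± 0.27, and the AMPA receptor subunit Gria1 averaged -0.47 ± 0.33; neither passed. The GABA and glycine receptor genes included Gabre (2.48 ± 0.93), Gabra4 (1.76 ± 0.64) and Gabrr2, a GABA receptor subunit known from retinal neurons (1.66 ± 0.53). Gabrp, a subunit better known from tissues outside the nervous system, lay below the reference at -2.04, -2.42, -2.87 and -2.24 (-2.39 ± 0.35, adjusted p = 0.00166). Gabrq was also below (-1.32 ± 1.01), though its value on control 1 was 0.02, and it did not pass without control 2, 3 or 4. Gabre, Gabra4, Gabrr2, Gabrp and Gabrq had no distinct spot. Of the 4 GABA and glycine receptor genes with one, 1 lay above and 0 below.

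Among the genes of transmitter release, Rims1, an active-zone scaffold, had 1.25, 2.45, 3.12 and 3.25 (2.52 ± 0.92, adjusted p = 0.00332). Unc13a, which primes vesicles, had 1.50, 1.71, 2.91 and 3.60 (2.43 ± 1.0, adjusted p = 0.00438), and Bsn, a further active-zone scaffold, averaged 1.40 ± 0.86 (adjusted p = 0.0203, and not passing without control 1, 2 or 4). Snap25, a SNARE protein of the plasma membrane, passed at 1.05 ± 0.50, while the vesicle proteins Syp (0.60 ± 0.29), Vamp2 (0.38 ± 0.15) and Sv2a (0.15 ± 0.29) did not. These 4 and Grin1 and Gria1 were picked after their values were seen. Of the 24 genes, 13 had no distinct spot, Rims1 and Unc13a among them.

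Over all measured members, ion channel genes also lay above the reference more often than below it, but not over those with a distinct spot. Of 23 measured sodium, calcium and HCN channel genes, 7 lay above and 1 below (median 0.57), and of 20 potassium channel genes, 7 lay above and 2 below (median 0.48). Cacna1a, the pore of P/Q-type calcium channels, averaged 2.28 ± 1.08, and Cacna1e, of R-type channels, averaged 2.02 ± 0.72. Hcn2, a pacemaker channel, had 0.96, 1.71, 1.80 and 1.84 (1.58 ± 0.41, adjusted p = 0.00472). Cacna1c, the L-type pore found in heart and smooth muscle as well as neurons, lay below the reference at -1.29 ± 0.53 over 11 spots that lay between -2.10 and 1.04, and did not pass without control 2. Of the potassium channels, Kcnj6 (1.47 ± 0.82), Kcnq3 (1.46 ± 1.02) and Kcnd2 (1.21 ± 0.50) lay above, and each of the 3 lost its call without at least 1 array. Kcnk2, a mechanosensitive leak channel, lay below at -1.56 ± 0.56. Only 3 of the 20 measured potassium channel genes had a distinct spot, of which 0 lay above and 1 below. Of the 8 sodium, calcium and HCN channel genes with a distinct spot, 1 lay above and 1 below. Cacna1a, Cacna1e and Hcn2 had no distinct spot.

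Postsynaptic scaffolds went both ways. Of 24 measured, 5 lay above and 3 below, with a median of -0.01 that ranged between -0.10 and 0.08 when 1 array was left out. Dlg1 (2.04 ± 0.52) and Dlg4, known as PSD-95 (1.76 ± 0.48), and the adhesion protein Nlgn3 (2.52 ± 1.07) lay above the reference. Homer3 (-2.53 ± 0.41), Homer2 (-1.90 ± 0.77) and Gphn, the anchor of glycine and GABA receptors (-2.52 ± 0.68), lay below it. All 6 were on 1 side of 0 on all 4 arrays, but none of them had a distinct spot. Homer3, Homer2 and Gphn had only shared values on all 4 arrays. Of the 10 genes of the list with a distinct spot, 1 lay above and 0 below. The 6 spots of Dlg4 disagreed, and the one with the largest p, tested on its own, averaged 0.27 and did not pass.

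Of 20 measured neuropeptide and precursor-processing genes, 6 lay above and 0 below (median 0.39), and 17 of the 20 had a distinct spot. Gal, galanin, had ratios of 1.08, 2.36, 1.48 and 2.27 (1.80 ± 0.62 over 10 spots, adjusted p = 0.00489). Chga, a granin of dense-core vesicles, had 1.64, 1.07, 1.12 and 2.16 (1.50 ± 0.51, adjusted p = 0.00688), and Pcsk2, a prohormone convertase, had 0.99, 1.79, 2.02 and 3.31 (2.03 ± 0.96, adjusted p = 0.00717). Vip, a peptide of amacrine cells, averaged 1.37 ± 0.54. Npy (1.39 ± 0.49) and Pnoc (1.29 ± 0.66) completed the 6 and were named after their values were seen.

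Cytoskeletal genes of neurons mostly did not pass. Of 24 measured, 2 lay above the reference and 0 below, with a median of 0.16, or 0.09 without control 2. Besides Gap43, the gene above was Dcx, doublecortin of migrating and growing neurons, at 2.0, 1.47, 0.71 and 1.25 (1.36 ± 0.54, adjusted p = 0.0101). None of the 4 stathmins passed, although they span a range: Stmn4 averaged 0.75 ± 0.73, Stmn3 -0.03 ± 0.46, Stmn1 -0.46 ± 0.20 and Stmn2 -0.75 ± 0.99. Stmn4 passed without control 3 and with array weights (means of 1.06 and 0.96). Sncb, beta-synuclein, averaged 0.31 ± 0.97 and did not pass.

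Motors of axonal transport included members far apart. Of 22 measured, 3 lay above and 10 below, with a list median of -0.74, or -0.34 over distinct spots. Kif5a, the neuronal kinesin-1 heavy chain, had 1.97, 1.41, 2.57 and 1.91 (1.96 ± 0.47, adjusted p = 0.00289). Kif5b, the kinesin-1 heavy chain found in most cells, had -1.55, -1.53, -2.16 and -2.28 (-1.88 ± 0.40, adjusted p = 0.00285). The 4 values of Kif5a and the 4 of Kif5b lie on opposite sides of 0. Kif5a had no distinct spot and only shared values on 2 arrays, whereas Kif5b had a distinct spot. Of the 16 genes of the list with a distinct spot, 1 lay above and 6 below. Kif1b, a carrier of synaptic vesicle precursors and mitochondria, averaged 2.57 ± 0.47 and had no distinct spot. Kif3a, a subunit of kinesin-2, had the lowest ratio of the list, at -3.49, -4.46, -5.27 and -3.34 (-4.14 ± 0.90, adjusted p = 0.00143). Its partner subunit Kif3b averaged 1.02 ± 0.37 over 3 spots that lay between -0.91 and 2.16, and its only distinct spot was at -0.91; its call also needed control 1 and control 2. Dctn2, of the dynactin complex, lay below the reference at -1.19 ± 0.51, and did not pass without control 2 or control 4.

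RNA-binding proteins of neurons and guidance genes gave few calls. Of 16 measured RNA-binding genes, 3 lay above and 3 below. Celf5, a neuronal splicing regulator, averaged 2.09 ± 0.40, and Fmr1, the fragile X protein that regulates translation at synapses, averaged -4.10 ± 1.08 (-3.42, -3.55, -5.72 and -3.72, adjusted p = 0.00163). Rbfox2, which is also made outside neurons, averaged -1.49 ± 0.37. Of 22 axon guidance genes, 3 lay above and 1 below. The 3 were the ligand Slit1 (2.43 ± 0.38), the receptor Robo3 (2.29 ± 0.44) and the plexin Plxna2 (1.58 ± 0.76), and the 1 below was Slit3 (-2.30 ± 0.76). Slit1 and Slit3, both ligands of Robo receptors, stood on opposite sides of the reference on every array. However, Slit1, Slit3, Robo3, Celf5 and Rbfox2 had no distinct spot, and Rbfox2 had only shared values on all 4 arrays. Of the 10 guidance genes with a distinct spot, 1 lay above and 0 below. Of the 8 RNA-binding genes with one, 1 lay above and 2 below.

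**Figure D3:**
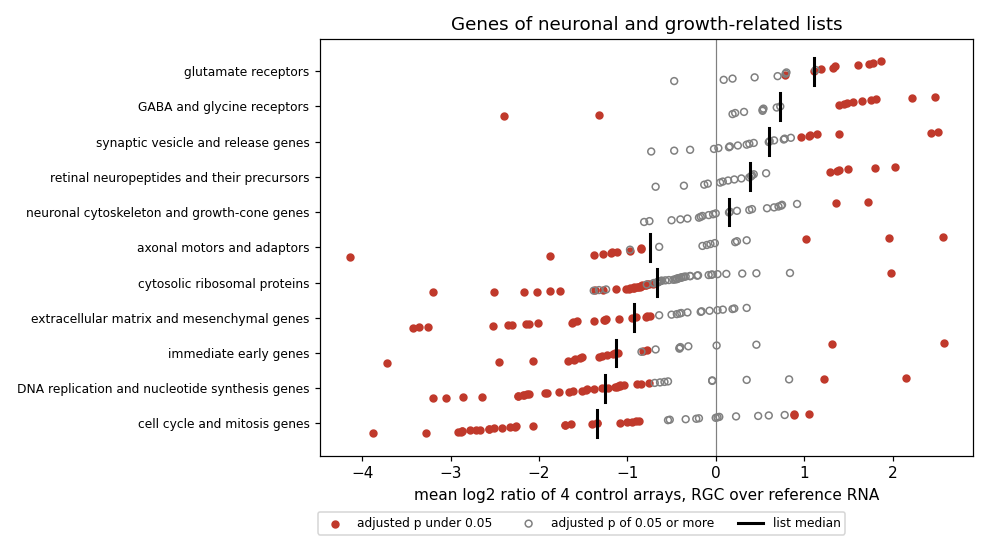
Mean log2 ratio of RGC over reference RNA of every measured gene in 11 lists, one row per list, with filled points for an adjusted p under 0.05, open points for the others and a bar at the list median. Glutamate receptors (median 1.11) lie mostly to the right of 0, and cell cycle genes (median -1.34) mostly to the left, while each row spans at least 2 log2 units.

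The same RNA was checked for markers of the other retinal cell types. Of 16 measured photoreceptor markers, 9 lay above the reference and 1 below (median 1.16, 0.67 to 1.24 over the arrays). Of 7 bipolar cell markers, 5 lay above and 1 below (median 1.19, with 0.93 to 1.41 when 1 array was left out). Of 15 amacrine and horizontal cell markers, 3 lay above and 1 below (median 0.01, with -0.11 to 0.20 when 1 array was left out and 0.43 over distinct spots). The photoreceptor and bipolar medians are thus higher than the 0.28 of the RGC markers. This is not particular to retinal neurons. The medians of lens crystallins (1.17), erythrocyte genes (1.12) and genes of pancreas, testis, muscle, kidney and skin (0.89) are higher too. Those of amacrine and horizontal cells (0.01), astrocytes (0.10), Muller glia (-0.42) and myelin (-0.63) are lower. These differences were not tested.

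Pde6b, the rod phosphodiesterase subunit, had ratios of 2.43, 1.31, 2.77 and 1.81 (2.08 ± 0.65, adjusted p = 0.00334), and Abca4, a retinoid transporter of photoreceptor discs, had 1.23, 2.26, 1.73 and 1.37 (1.65 ± 0.46, adjusted p = 0.0045). Aipl1, a photoreceptor chaperone, averaged 1.14 ± 0.36 over 3 spots, and did not pass without control 2 or control 4. Gngt1, the rod transducin gamma subunit, lay below the reference at -0.62, -1.83, -2.34 and -1.92 (-1.68 ± 0.74, adjusted p = 0.00806). Of the bipolar markers, Pcp2 (1.46 ± 0.80), Otx2 (1.36 ± 0.73) and Trpm1, the cation channel of ON bipolar cells (1.0 ± 0.27), lay above. Prkca, a kinase used to label rod bipolar cells and also made in many other tissues, lay below at -1.56 ± 0.51 over 7 spots. Otx2 did not pass without control 4, nor did Trpm1 without control 2 or control 4. Pax6, the eye development factor that RGCs and amacrine cells keep making, had 0.85, 0.77, 1.40 and 1.12 (1.03 ± 0.29, adjusted p = 0.0155) and lost its call without control 4. Tfap2a, an amacrine factor, averaged 0.92 ± 0.46 and lost its call without control 2, 3 or 4, and Onecut1, of horizontal cells, averaged -1.71 ± 0.51. Of the 16 photoreceptor markers 8 had no distinct spot, and of the 7 bipolar markers 5 had none.

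Glial and immune markers were divided. Of 13 Muller glia markers, 1 lay above and 5 below (median -0.42), and of 12 astrocyte and gliosis genes, 3 lay above and 5 below (median 0.10, 0.03 without control 4 and -0.16 over distinct spots). Slc1a3, the glial glutamate transporter, had -2.80, -0.89, -3.68 and -2.84 (-2.55 ± 1.18, adjusted p = 0.00544), and Car14, a carbonic anhydrase, averaged -2.03 ± 0.53. Dkk3, a secreted protein of Muller cells, was the gene above, at 0.86, 0.86, 0.99 and 0.79 (0.87 ± 0.08), over 3 spots that lay between 0.08 and 1.68, and it did not pass without control 2, 3 or 4. Gfap, the filament of reactive glia, averaged 0.56 ± 0.70 and did not pass. Glul, glutamine synthetase, was at 0.50, 0.21 and 0.26 on controls 1, 2 and 4 and at -1.60 on control 3. The astrocyte and gliosis genes above were Osmr (2.11 ± 1.32), Pax2 (1.71 ± 1.02, not passing without control 1 or 4) and Aldh1l1 (1.21 ± 0.66, not passing without control 1, 2 or 3). Cd44, an adhesion receptor of reactive glia and of many cultured cells, lay below at -2.28 ± 0.32.

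Of 16 microglia and macrophage markers, 3 lay above and 3 below (median 0.43). Cx3cr1, the fractalkine receptor of microglia, had 3.04, 2.64, 2.80 and 2.79 (2.82 ± 0.16, adjusted p = 0.00138), which is 7.05-fold above the reference. Aif1, which encodes the microglial protein IBA1, had -3.21, -1.19, -3.86 and -3.26 (-2.88 ± 1.16, adjusted p = 0.00364), or 7.37-fold below. These markers of the same cell type lie on opposite sides of the reference on every array. Cx3cr1 had a distinct spot, but Aif1 had none and only shared values on 3 arrays. Spi1, the myeloid transcription factor PU.1, averaged 1.55 ± 0.24, and Ctss, a lysosomal protease, averaged -1.63 ± 0.38. Ptprc, the leukocyte antigen CD45, averaged -2.02 ± 1.01 from its 1 spot with values on all arrays, and 0.16 when spots with values on at least 3 arrays were included. That 1 spot was not distinct.

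Markers of vessels, myelin, lens and blood were few. Of 12 endothelial and pericyte markers, 3 lay above and 2 below (median 0.42, or -0.52 over distinct spots). Cdh5, the cadherin of endothelial junctions, had 2.05, 2.08, 2.47 and 2.08 (2.17 ± 0.20, adjusted p = 0.00173, over 2 spots at 0.91 and 3.43), and the pericyte receptor Pdgfrb had -1.62, -1.70, -2.99 and -2.24 (-2.14 ± 0.63, adjusted p = 0.00304). The endothelial gene Tie1 (1.83 ± 0.51) also lay above, as did Abcc9, a channel-associated protein of pericytes, at 3.31, 2.10, 0.68 and 1.82 (1.98 ± 1.08, adjusted p = 0.0102). Cspg4, a proteoglycan of pericytes, lay below (-1.78 ± 0.21), so pericyte markers stood on both sides. Of 5 myelin genes, Mobp lay above (2.77 ± 0.46) and Cnp (-1.91 ± 0.23) and Olig1 (-2.41 ± 0.67) below. Of 6 lens crystallins, 3 lay above, among them Cryba1 (2.47 ± 0.56), and 1 below, Cryba4 (-2.92 ± 0.88). Of 4 erythrocyte genes, Alas2, the first enzyme of heme synthesis in red cells, averaged 2.21 ± 0.61 and lay above with Epb42 (1.33 ± 0.94, not passing without control 2, 3 or 4), while Hba-a3, a globin, averaged 0.21 ± 0.54. Of 6 pigment epithelium markers, 1 lay above, Slc16a8 (2.50 ± 0.36). In each of the crystallin, erythrocyte and pigment epithelium lists, 1 gene had a distinct spot, and it did not pass. The calls in these lists thus rest on genes without a distinct spot, as do those of Tie1, Cnp and Olig1. What these cells contribute to the RNA was not tested.

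The named genes furthest above the reference were not neuronal markers. Under the rule used for them (highest mean, the same sign on all arrays, a distinct spot), 5 of the 12 highest were olfactory receptors: Or51f4 (3.55 ± 1.25), Or51f5 (3.46 ± 1.42), Or6c214b (3.45 ± 0.47), Or51g2 (3.39 ± 0.44) and Or1f45 (3.37 ± 0.64). The others were Maml3, a Notch coactivator (3.54 ± 0.89), Mfsd6l, a transporter-like protein (3.50 ± 0.20), Xirp2, an actin-binding protein of striated muscle (3.46 ± 1.78), Otog, otogelin of the inner ear (3.44 ± 0.84), the homeobox factor Otx1 (3.44 ± 1.17), Pld5, of the phospholipase D family (3.39 ± 1.38), and Raet1l, of the NKG2D ligand family (3.37 ± 0.62). Mfsd6l varied least, at 3.76, 3.45, 3.49 and 3.28, or 11.3-fold above the reference. Xirp2 was at 4.82, 4.09 and 4.08 on controls 1, 2 and 4 and at 0.84 on control 3. The next genes outside the olfactory receptors included C9, the last component of the complement cascade (3.28 ± 0.61), Cyp4a1, a fatty acid hydroxylase of liver and kidney (3.19 ± 0.57), Drp2, a dystrophin-related protein (3.17 ± 0.09), and Atoh8, a basic helix-loop-helix factor (3.17 ± 0.61). That extension of the rule was added after the values were seen.

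**Figure D4:**
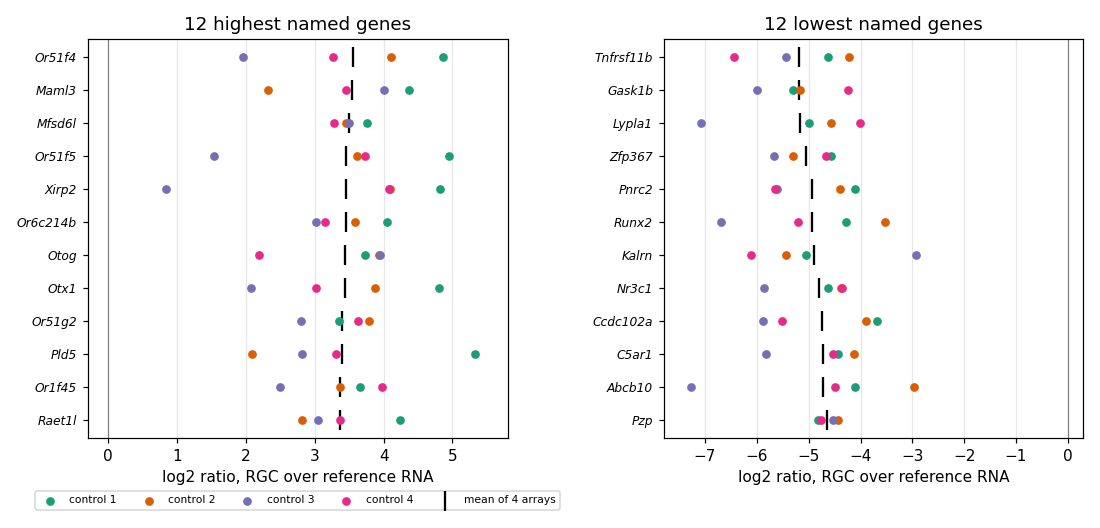
Log2 ratio of RGC over reference RNA of the 12 highest (left) and 12 lowest (right) named genes, with a point for each control array and a bar at the mean of 4 arrays. The means of the highest genes run between 3.37 and 3.55 and those of the lowest between -5.18 and -4.64, and control 3 lies apart in several rows.

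Olfactory receptor genes as a family stood above the reference. They encode the odorant receptors of the nasal epithelium, a family whose members are near-identical in places, and whether a probe reads 1 member alone is not known here. Of 1095 such genes on the array, 486 were measured, and 345 of them (71.0%) lay above the reference, 16 below and 125 did not pass. Their median was 1.70, with medians of 1.66, 1.71, 1.40 and 1.60 on the 4 arrays. By sign alone, 367 were above 0 on all 4 arrays and 20 below. Without the family, 1601 of 10305 named genes (15.5%) lay above and 34.6% below. Of the 59 named genes at 8-fold or more above the reference, 26 were olfactory receptors, against 0 of the 234 at 8-fold or more below it.

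Or6c214b had ratios of 4.05, 3.59, 3.01 and 3.15 (adjusted p = 0.00138), and Or12k7b had 3.48, 3.55, 3.0 and 2.84 (3.22 ± 0.35, adjusted p = 0.00138). Members below the reference existed too, such as Or5aq1d at -3.36, -2.22, -3.19 and -2.50 (-2.82 ± 0.55, adjusted p = 0.00163). Of the 486 genes, 127 had a distinct spot, of which 109 lay above the reference and 0 below, with a median of 2.16. The other chemoreceptors went the same way: of 18 measured vomeronasal and taste receptor genes of 61, 11 lay above and 0 below (median 1.27). Among them were Vom1r54, a pheromone receptor (2.33 ± 0.26), and Tas1r3, a subunit of the sweet and umami receptors (2.41 ± 0.67).

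Whether a spot had a value moved with its ratio. Of 1100 olfactory receptor spots, 487 (44.3%) had a value on all 4 arrays, against 15429 of 24253 (63.6%) spots of other named genes. The median ratio of olfactory receptor spots with values on 1, 2, 3 and 4 arrays was 0.90, 0.98, 1.20 and 1.70. Spots of other named genes had 0.78, 0.66, 0.52 and -0.40. Outside the family, spots with missing values were therefore above 0 in the median, and complete spots were below it. The part of spot quality, dye or family cross-reaction in the olfactory receptor ratios was not tested, and since the authors' criteria chose the measured members, their count is a description of those members only.

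Genes typical of pancreas, testis, muscle, kidney and skin were also more often above than below the reference, with 9 above and 5 below of 21 measured. Their median was 0.89, with 0.71 to 1.0 when 1 array was left out and 1.41 over distinct spots. Mb, myoglobin, had 2.96, 2.42, 2.68 and 1.75 (2.45 ± 0.52, adjusted p = 0.00191), and Ins1, insulin, had 3.20, 2.76, 1.41 and 2.01 (2.34 ± 0.80, adjusted p = 0.00322). Myh2, a skeletal muscle myosin, and Krt10, a keratin of skin, lay below at -2.31 ± 0.80 and -2.38 ± 1.07. Of 22 liver genes, 2 lay above and 9 below: Apob (2.17 ± 1.07, or 0.65 with no call over spots with values on at least 3 arrays) and Serpina1 (0.97 ± 0.43) stood above, while the fibrinogen chains Fgg (-3.50 ± 0.99) and Fga (-2.15 ± 0.56) and Asl, of the urea cycle (-2.70 ± 0.73), stood below. The median of the gene means of the liver list was 0.07, but its medians on the single arrays were all below 0, at -0.53, -0.57, -0.75 and -0.19. It also changed sign to -0.04 without control 2, -0.27 without control 3, -0.22 without control 4, -0.07 with the median of a gene's spots and -0.90 over distinct spots, so the list has no settled direction. Serpina1 did not pass without control 1, 2 or 3.

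Cytochrome P450 genes and solute carriers were spread over both sides. Of 39 measured P450 genes, 12 lay above and 13 below (median 0.34, or 0.19 without control 1). Cyp4f4 (3.19 ± 0.46) and Cyp2s1 (2.49 ± 0.76) lay above, as did Cyp4a1, and Cyp3a9 (-2.30 ± 0.15), Cyp26a1, which degrades retinoic acid (-2.18 ± 0.37), and Cyp2d5 (-2.60 ± 0.67) lay below. Of 219 solute carriers, 44 lay above and 57 below (median 0.09, or -0.05 without control 1). Slc6a2, the noradrenaline transporter, had 2.19, 2.38, 3.07 and 2.98 (2.65 ± 0.43, adjusted p = 0.00163). Slc33a1, the acetyl-CoA transporter of the endoplasmic reticulum, had -2.58, -2.66, -2.82 and -2.36 (-2.61 ± 0.19, adjusted p = 0.00143, but -1.11 with no call once spots with values on at least 3 arrays were included), and Slc7a2, a cationic amino acid transporter, averaged -3.24 ± 0.91. Slc2a1, the glucose transporter GLUT1, averaged -0.87 ± 0.32 over 10 spots, with no call left without control 2, 3 or 4, and Slc2a3, the neuronal glucose transporter GLUT3, averaged -1.49 ± 0.62.

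**Figure D5:**
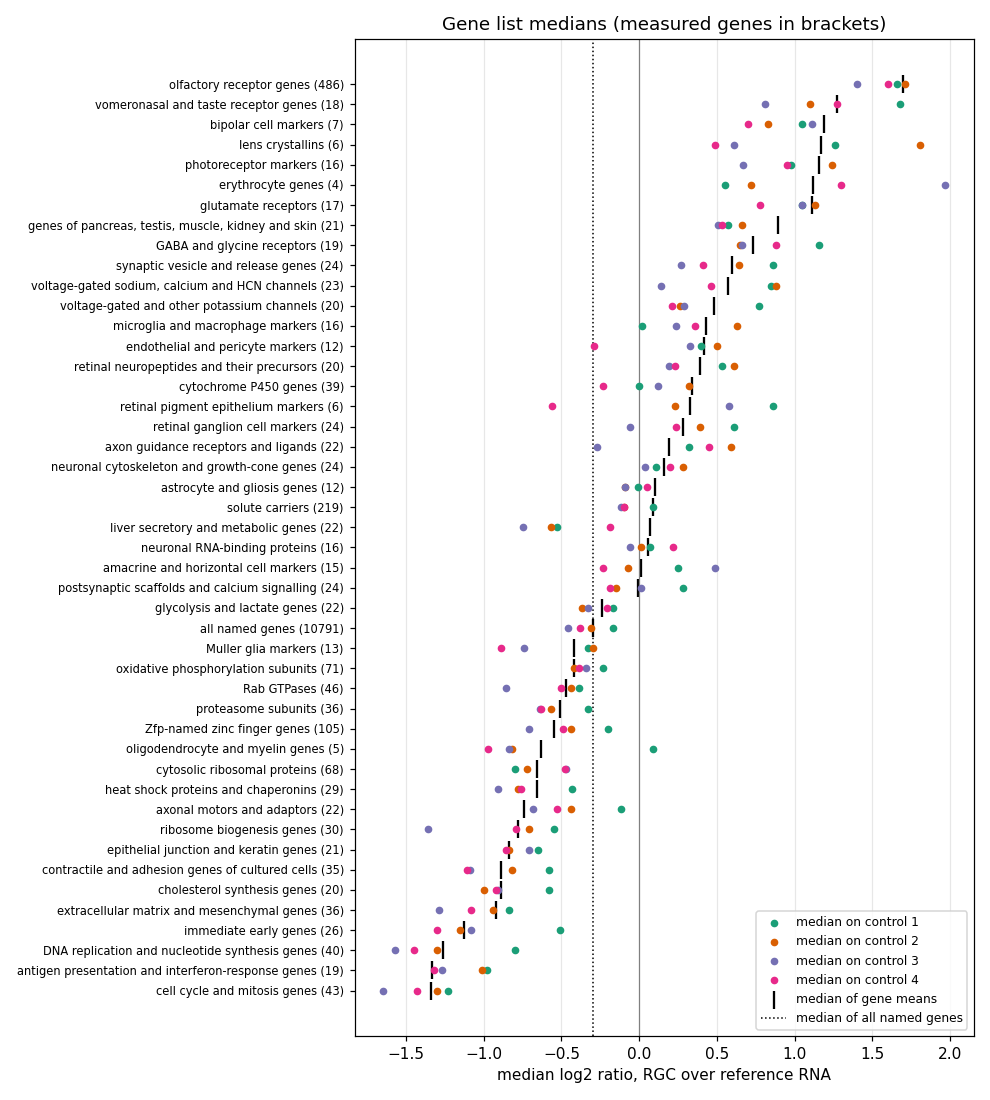
Median log2 ratio of RGC over reference RNA of each gene list, ordered by the median of the gene means (bars), with a point for the list's median on each control array and the number of measured genes in brackets. The dotted line marks the median of all named genes at -0.30. Chemoreceptor, bipolar, lens crystallin, photoreceptor, erythrocyte and glutamate receptor lists lie at the top. Genes of pancreas and other tissues and GABA and glycine receptors follow. Cell cycle, replication, interferon, immediate early and matrix lists lie at the bottom.

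Genes of proliferation lay below the reference. Of 43 measured cell cycle and mitosis genes, 28 (65.1%) lay below and 3 above, with a median of -1.34 and medians of -1.65 to -1.23 on the 4 arrays. Of 40 DNA replication and nucleotide synthesis genes, 30 lay below and 2 above (median -1.26). Both shares are higher than the 33.2% of all named genes below the reference. Over the 28 cell cycle genes with a distinct spot the median was also -1.34, and 19 of those 28 lay below.

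Bub1, a kinase of the spindle checkpoint, had ratios of -3.31, -3.90, -4.35 and -3.98 (-3.88 ± 0.43, adjusted p = 0.00138), 14.8-fold below the reference. Cdc6, which loads the replicative helicase, had -2.90, -2.94, -3.49 and -3.80 (-3.28 ± 0.43, adjusted p = 0.00138), and Ube2c, which ubiquitinates mitotic cyclins, had -2.51, -3.0, -3.17 and -2.79 (-2.87 ± 0.29, adjusted p = 0.0014). All 3 were far below 0 on every array. Mcm6, a subunit of that helicase, averaged -3.20 ± 0.41, Pole2, of DNA polymerase epsilon, averaged -3.05 ± 0.61, and Orc1, of the origin recognition complex, averaged -2.86 ± 0.61. Top2a, the topoisomerase of dividing cells, averaged -1.08 ± 0.81 (adjusted p = 0.0429), and it was at 0.11 on control 2 and lost its call without control 1, 3 or 4. Mki67, the proliferation marker Ki-67, had no spot with a value on all 4 arrays. The members above the reference were Cdca3 (0.89 ± 0.21), Cenpf (1.06 ± 0.74) and Birc5 (0.88 ± 0.55) in the cell cycle list, none of which passed in every fit with 1 array left out, and Pola1 (2.15 ± 1.15) and Pold2 (1.23 ± 0.83, not passing without control 1, 3 or 4) in the replication list.

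Many cell cycle genes are known to share promoter elements. Promoter windows of 250 bases before to 50 bases after the gene start were taken from RefSeq (build GRCr8) for the 33 measured cell cycle genes that had one, and searched on both strands for the CCAAT box (CCAAT, or ATTGG on the other strand), a binding site of the factor NF-Y, and for the cell cycle genes homology region (TTTGAA, or TTCAAA on the other strand), a binding site of MuvB complexes. Matches of the 2 motifs were counted separately, whether or not they overlapped. Of all 33469 windows, 37.5% held a CCAAT box, 18.3% the homology region and 7.41% both. Of the 19 windows of genes below the reference, 73.7% held the CCAAT box, 57.9% the homology region and 47.4% both. Of the 11 windows of cell cycle genes that did not pass, 63.6% held the CCAAT box, 45.5% the homology region and 45.5% both. Of the 3 windows of genes above the reference, all held the CCAAT box, and 66.7% held the homology region and both. Whether these shares differ was not tested. The windows of Ttk, a spindle checkpoint kinase (-2.78 ± 0.75), Prc1, a protein of the central spindle (-2.67 ± 0.70), and Ccnb2, a mitotic cyclin (-2.51 ± 0.86), are shown as those with both motifs and the smallest p-values, and were picked after their values were seen. They lie at chr8:93634389-93634688 (plus strand), chr1:143659231-143659530 (plus strand) and chr8:79981609-79981908 (minus strand), and capitals mark the matches to either motif.
Ttk: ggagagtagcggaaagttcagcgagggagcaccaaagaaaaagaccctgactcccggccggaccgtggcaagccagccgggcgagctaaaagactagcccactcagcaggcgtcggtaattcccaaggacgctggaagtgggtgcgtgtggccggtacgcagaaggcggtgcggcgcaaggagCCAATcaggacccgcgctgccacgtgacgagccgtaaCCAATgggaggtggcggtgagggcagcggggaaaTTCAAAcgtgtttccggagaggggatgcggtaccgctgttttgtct
Prc1: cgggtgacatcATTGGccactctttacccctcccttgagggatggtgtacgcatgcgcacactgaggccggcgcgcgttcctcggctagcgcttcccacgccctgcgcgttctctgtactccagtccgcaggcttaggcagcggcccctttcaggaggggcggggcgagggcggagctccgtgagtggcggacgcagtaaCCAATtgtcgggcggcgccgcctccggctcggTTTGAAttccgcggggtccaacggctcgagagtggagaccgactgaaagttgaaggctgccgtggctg
Ccnb2: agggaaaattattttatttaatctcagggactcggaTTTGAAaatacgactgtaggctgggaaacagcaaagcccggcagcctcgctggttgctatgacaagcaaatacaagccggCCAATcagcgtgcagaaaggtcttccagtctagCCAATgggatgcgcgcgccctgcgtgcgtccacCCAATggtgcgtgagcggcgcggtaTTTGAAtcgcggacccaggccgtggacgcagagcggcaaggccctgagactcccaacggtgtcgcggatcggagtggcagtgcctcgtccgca
In these windows, Ttk and Prc1 hold 2 CCAAT boxes and 1 homology region each, and Ccnb2 holds 3 CCAAT boxes and 2 homology regions. A match is a description of the sequence and does not show binding.

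The genes furthest below the reference came from several functions. The lowest were Tnfrsf11b, the secreted decoy receptor osteoprotegerin, at -4.62, -4.23, -5.43 and -6.45 (-5.18 ± 0.98, 36.3-fold below, adjusted p = 0.00138), and Gask1b, a Golgi protein, at -5.18 ± 0.72. Zfp367, a zinc finger factor, had -4.57, -5.31, -5.67 and -4.66 (-5.05 ± 0.53, 33.2-fold below, adjusted p = 0.00138). Runx2, the factor of bone-forming cells, averaged -4.93 ± 1.36, and C5ar1, the receptor of complement C5a, averaged -4.73 ± 0.75. Pzp, a protease inhibitor of plasma, varied least among the 12, at -4.82, -4.43, -4.53 and -4.77 (-4.64 ± 0.18). Nr3c1, the glucocorticoid receptor, averaged -4.80 ± 0.72 over 11 spots that lay between -6.22 and -1.18. Kalrn, a guanine nucleotide exchange factor with a role in dendritic spines, averaged -4.89 ± 1.37, with -2.94 on control 3 and -6.12 to -5.06 on the others. The rest were Lypla1 (-5.16 ± 1.33), Pnrc2 (-4.94 ± 0.81), Ccdc102a (-4.74 ± 1.12) and Abcb10 (-4.72 ± 1.83), and all 12 were below 0 on every array.

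Genes of connective tissue and attached cultured cells lay below the reference. Of 36 measured extracellular matrix and mesenchymal genes, 22 (61.1%) lay below and 0 above (median -0.92), and of 35 contractile and adhesion genes, 17 lay below and 0 above (median -0.89). Plod2, a collagen lysyl hydroxylase, had -3.02, -3.88, -3.81 and -3.0 (-3.43 ± 0.49, adjusted p = 0.00138), Col8a1, a short-chain collagen, had -3.59, -2.69, -3.85 and -3.29 (-3.36 ± 0.50, adjusted p = 0.00138), and Fbln1, a matrix glycoprotein, averaged -2.30 ± 0.22. Col1a1, the main chain of type I collagen, averaged -0.39 ± 0.41 over 3 spots and did not pass, but passed at -1.34 from distinct spots alone. Actn1, an actin crosslinker (-2.35 ± 0.75), and Cald1, caldesmon (-1.77 ± 0.34, or -0.56 with no call over spots with values on at least 3 arrays), lay below, while Vim, vimentin, stood at -0.33, -0.30, 0.0 and -0.10 (-0.18 ± 0.16) and did not pass. Among all 19 measured collagen genes, 10 lay below and 2 above, Col4a4 (2.0 ± 0.62) and Col2a1 (1.28 ± 0.62).

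Epithelial genes followed with 11 below and 2 above of 21 (median -0.84, -1.0 without control 1 and -1.17 over distinct spots). Epcam, the epithelial adhesion molecule, had -3.35, -2.11, -3.0 and -3.60 (-3.02 ± 0.65, adjusted p = 0.00163), and Cldn1, a tight junction protein, averaged -2.37 ± 0.48. Krt14 (-2.23 ± 0.42) and Krt8 (-1.96 ± 0.36), keratins of basal and simple epithelia, lay below as well. Of all 23 measured keratins, 8 lay below and 4 above (median -0.31, or -0.97 over distinct spots), so the family did not stand on 1 side. Krt76 (1.55 ± 0.36) was the keratin above the reference with the smallest p. St14, an epithelial protease, was above at 2.30 ± 1.45 with a wide spread.

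Housekeeping machinery was mostly at or below the reference. Of 68 measured cytosolic ribosomal proteins, 27 (39.7%) lay below and 1 above (median -0.66), against 33.2% below of all named genes. Of 30 ribosome biogenesis genes, 14 (46.7%) lay below and 1 above (median -0.78, or -0.41 over distinct spots). Of the 20 of these with a distinct spot, 6 lay below and 1 above. Rplp0, a protein of the ribosomal stalk, had -1.40, -1.71, -1.86 and -2.05 (-1.76 ± 0.28, adjusted p = 0.00287). Rps15 averaged -1.87 ± 0.44, and Rps23 averaged -2.17 ± 0.69 over 2 spots that lay at -4.52 and 0.18. The 1 above was Rpl36a, at 1.98 ± 1.12. In ribosome biogenesis, Wdr12 (-3.43 ± 0.94), Gar1 (-2.66 ± 0.53) and Nop14 (-2.42 ± 0.63) lay below, and Pes1 above (1.31 ± 0.72), though not without control 4. Ribosomal protein probes can also read processed copies of these genes, and this was not tested.

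Energy metabolism stood nearer to the median of all named genes. Of 71 oxidative phosphorylation subunits, 15 (21.1%) lay below and 3 above (median -0.42), and of 22 glycolysis and lactate genes, 3 lay below and 2 above (median -0.24, or -0.38 over distinct spots). Ndufs1, the largest subunit of complex I, had -2.61, -3.86, -6.10 and -3.56 (-4.03 ± 1.48, adjusted p = 0.00254), and Cox7c, of cytochrome oxidase, averaged -3.20 ± 1.04. Uqcrq, of complex III, had 1.77, 1.13, 1.83 and 1.48 (1.55 ± 0.32, adjusted p = 0.00421), and Cox6a2, the form of that oxidase subunit made in heart and muscle, averaged 1.42 ± 0.33. Subunits of the same complexes thus stood on both sides of the reference. Gapdh, the glycolytic enzyme often used as a control gene, averaged -1.35 ± 0.62 over 11 spots that lay between -2.37 and 0.30, and did not pass without control 2 or control 4 or at its spot with the largest p (-0.35). Pfkfb2, a regulator of glycolysis, averaged 1.78 ± 0.38, or 1.08 with no call once spots with values on at least 3 arrays were included.

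Cholesterol synthesis, protein folding and protein breakdown had no member above the reference. Of 20 cholesterol genes, 11 lay below (median -0.89, or -0.56 over distinct spots). Nsdhl, of late cholesterol synthesis, had -3.08, -3.10, -4.34 and -5.24 (-3.94 ± 1.05, adjusted p = 0.00163), Scd, which desaturates fatty acids, averaged -3.63 ± 0.98 (-1.36 with no call once spots with values on at least 3 arrays were included), and Cyp51, lanosterol demethylase, averaged -2.10 ± 0.49. Of 29 heat shock proteins and chaperonins, 13 lay below (median -0.66), among them Dnajb1 (-2.23 ± 0.67), Hspb8 (-2.18 ± 0.53) and Cct4 (-1.78 ± 0.39). Of 36 proteasome subunits, 12 lay below (33.3%, median -0.51), a share close to that of all named genes. Psmd11, of the proteasome lid, averaged -3.06 ± 0.67.

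Immediate early genes, which respond within minutes to stimulation and to tissue handling, lay mostly below the reference, with 16 below and 2 above of 26 (median -1.13). Nr4a3, an orphan nuclear receptor, had -3.18, -3.83, -4.27 and -3.59 (-3.72 ± 0.46, adjusted p = 0.00138), and Egr2 had -1.72, -2.63, -2.48 and -2.95 (-2.45 ± 0.52, adjusted p = 0.00193). Egr3, of the same zinc finger family, had 2.51, 2.62, 1.95 and 3.24 (2.58 ± 0.53, adjusted p = 0.00179). Egr2 and Egr3 lay on opposite sides on every array. Fos and Jun, the partners of the AP-1 factor, averaged -1.51 ± 0.41 (adjusted p = 0.0054) and 0.01 ± 0.14, and were named after their values were seen; Jun did not pass over its 10 spots.

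Antigen presentation and interferon-response genes were split. Of 19 measured, 12 lay below and 4 above (median -1.33, or -1.07 over distinct spots). Tap1, the peptide transporter of class I presentation, had -2.44, -2.84, -1.87 and -2.63 (-2.44 ± 0.41, adjusted p = 0.0017), and Psmb9, an immunoproteasome subunit, averaged -2.21 ± 0.68. Gbp2, a guanylate-binding protein induced by interferon, averaged -1.98 ± 0.49. Among the genes above, Ciita, the master regulator of class II presentation, had 2.66, 1.26, 2.25 and 1.27 (1.86 ± 0.70, adjusted p = 0.00534), and Cd74, the class II invariant chain, had 0.75, 1.98, 2.51 and 1.41 (1.66 ± 0.76, adjusted p = 0.00874). With spots that had values on at least 3 arrays, Cd74 averaged 0.48 and did not pass. RT1-Da, a class II chain of the rat, went the other way at -1.88 ± 0.78 and was named after its value was seen. Stat2 was above at 1.03 ± 0.39, and did not pass without control 1 or control 4. Ciita, Cd74, Tap1 and Gbp2 had no distinct spot, and Ciita had only shared values on all 4 arrays. Of the 6 genes of the list with a distinct spot, 1 lay above and 4 below.

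Of the remaining gene families, 46 Rab GTPases, which direct vesicle traffic, had 15 below (32.6%) and 2 above (4.35%), with a median of -0.47. Their share below is close to the 33.2% of all named genes, and their share above is lower than the 18.0%. Rab3c, a Rab of synaptic vesicles, was above at 0.49, 1.31, 1.03 and 1.14 (0.99 ± 0.35, adjusted p = 0.02), though not without control 2, 3 or 4. Rab9b was above (1.35 ± 0.68, not passing without control 2 or 4) and Rab9a below (-2.40 ± 0.40), and Rab32, of melanosomes and related organelles, was below at -2.58 ± 0.65. Of 105 genes named Zfp for their zinc fingers, 31 lay below and 12 above (median -0.55, or -0.35 without control 3), a share below close to the 33.2% of all named genes. Zfp703 (2.22 ± 0.67) was the one above with the smallest p, and Zfp280d (-4.53 ± 0.43) lay near Zfp367 at the other end. Of the 10345 probes without a gene name, 2317 (22.4%) lay above the reference and 2930 (28.3%) below.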

How the data were processed

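The deposited values are log2 ratios per spot, Cy5 (RGC RNA) over Cy3 (reference RNA), to which the authors applied a global and a local Lowess normalisation and which they kept where a spot met Agilent's quality control, per the labels and the design text. The sources used here do not give the software or the genome build of the probes. The table does not state its log base or direction: the base was read from frequent identical values exactly 2 apart (tolerance 2e-05), the direction from the labelled dyes. Medians of controls 1 to 4 were 0.001, -0.004, 0.125 and -0.007. Signal intensities were not used here.

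Of 45220 spots, 25353 had 1 gene symbol in the annotation table, 48 had several and were left out, and 19819 had none. Symbols were updated through the gene identifier, present for 25306 spots. Spots of 1 symbol with values on all 4 control arrays were averaged; spots without a symbol, which may include control features, were tested under their own number. The test was limma 3.58.1 (R 4.3.3), an intercept-only lmFit with eBayes, two-sided, with Benjamini-Hochberg adjustment over 21136 items at 0.05; it was checked on simulated data. An exact sign-flip test of 4 arrays cannot go below 0.125. The p-values measure the spread between 4 pools against 1 reference RNA. Array number limits the precision.

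Gene lists are described by counts and medians, with no set test. Members and lists were chosen with earlier results of these data known. Named genes were the 12 highest and 12 lowest means (past the threshold, 1 sign on all arrays, a distinct spot), up to 3 genes per list and direction with the smallest p, and 26 markers; other genes are marked in the text as picked after their values were seen, or stand as non-passing members of a list. Alternatives covered scaling, filters, averaging, thresholds and each array left out.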

Additional observations from a re-analysis of the deposited data

Results flagged for a closer look

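In 8 of 103 groups of 4 values checked, the value of 1 array stood apart from the other 3 by Dixon's ratio at its 95% critical value, where chance gives about 1 in 20 groups. For 3 genes it was control 3: Armt1, an acidic-residue methyltransferase, had 1.34 there and 3.84 to 3.95 on the others, Glul had -1.60 against 0.21 to 0.50, and Isl1 had -1.22 against 0.25 to 0.41. Otog had 2.19 on control 4 and 3.73 to 3.94 on the others. The median of the array values was 0.125 on control 3 and -0.007 to 0.001 on the others. For 3 gene lists it was the median on control 1: oligodendrocyte and myelin genes were at 0.09 there and at -0.97 to -0.82 on the others, potassium channels at 0.77 against 0.21 to 0.29, and solute carriers at 0.09 against -0.12 to -0.10. The causes were not tested.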

How the results depend on the processing

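The counts of items above and below the reference (4263 and 6513 of 21136 tested) stayed within 1.5 times under other scalings, averaging, priors and array weights, with values on at least 3 arrays, and when 1 array was left out (2856 to 3533 above and 4766 to 6107 below). They were lower by construction with spots of distinct values only (1643 and 3428 of 9245 tested), against a log2 ratio of 1 (775 and 1913), at an adjusted p under 0.01 (1959 and 3834) and, chosen after seeing the data, with named genes only (2034 and 3706). Of the calls, 39.6% were above the reference, against 28.8% when tested against a log2 ratio of 1 and 32.4% with distinct values. With values on at least 3 arrays, this share rose to 44.8%. In that setting 18.9% of 26980 items lay above and 23.2% below, against 20.2% and 30.8% in the main fit. Scaling moved no list median by more than its spread over arrays.

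With distinct values, 18 of 44 list medians moved by more than that spread, to -0.01 for RGC markers, 0.43 for amacrine and horizontal cells, -0.16 for astrocyte genes, -0.52 for endothelial and pericyte markers, 0.84 for myelin genes, 1.41 for genes of pancreas and other tissues, 0.41 for GABA and glycine receptors, 0.22 for sodium, calcium and HCN channels and -0.34 for axonal motors. Ribosome biogenesis moved to -0.41, epithelial genes to -1.17, liver genes to -0.90, glycolysis to -0.38, cholesterol synthesis to -0.56, antigen presentation to -1.07, olfactory receptors to 2.16, vomeronasal and taste receptors to 1.95 and keratins to -0.97. With 1 array left out, 7 list medians moved: bipolar markers ranged between 0.93 and 1.41, astrocyte genes between 0.03 and 0.16, genes of pancreas and other tissues between 0.71 and 1.0, GABA and glycine receptors between 0.90 and 1.05, epithelial genes between -1.0 and -0.77, liver genes between -0.27 and 0.06 and solute carriers between -0.05 and 0.14. The causes of these moves were not tested.

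Of 247 named genes, 3 turned sign under an alternative among those with a call in either fit: Ptprc was at 0.16 with values on at least 3 arrays, Kif3b at -0.91 at its spot with the largest p and with distinct values, and Rps23 at 0.18 at its spot with the largest p. Values with no call, such as those of Isl1, Glul, Nefh and Rbpms, also crossed 0 when 1 array was left out. Leaving out 1 array ended 20 to 33 calls. For spots taken singly, the count of 3 covers only a gene's spot with the largest p. Other spots of a called gene could lie across 0. Cacna1c and Gapdh, both below the reference, had spots at up to 1.04 and 0.30. Spots of the same gene differed by over 1 log2 unit in their means in 1861 of the 2949 genes that had more than 1. Without intensities, a dim spot could be recognised only by shared values. No paired analysis was possible because only the control group was used.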
